A study of Homo sapiens with 72 samples.

Results

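The 7 mRNAs examined here, TRIM11, PLEKHO2, PHF23, CREBZF, RND3, CCDC137 and MIDN, were more abundant in A375 cells when cycloheximide was added to a transcription block. They were chosen by their symbols from the 44659 genes of the count table, 29493 of which had a count in any library, for a strong and repeated difference between cells with and without cycloheximide. That difference is therefore given as a description and carries no test.

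A375 is an established human melanoma line. Cytoplasmic RNA was profiled by QuantSeq, which reads the 3′ end of polyadenylated mRNA, in 72 libraries, with 3 replicates in each of 24 groups. In the first of 2 experiments, cells received a pool of 2 siRNAs against CTU2 (siCTU2) or the control siRNA siGL2 for 42 h. In the second, cells spent 18 h in medium without glutamine (mQ) or with glutamine (pQ). All cells then received triptolide (25 µM), alone (T arm) or together with cycloheximide at 100 µg/ml (TCHX arm), and were harvested immediately (0 h) or after 3 or 5 h. No group was left without triptolide, so the 0 h libraries are the only reference for the level before decay. In such bulk samples, fewer cells and less RNA per cell cannot be told apart. The labels do not say whether replicates came from separate cultures, and p-values measure only the spread between these libraries.

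Triptolide stops transcription, and the level of an existing mRNA then falls at the pace of its decay. Cycloheximide freezes elongating ribosomes, and mRNAs whose decay needs ongoing translation are kept longer when it is present. CTU2 is a subunit of the enzyme that thiolates the wobble uridine of certain tRNAs, and glutamine is a source of carbon and nitrogen for other amino acids, so both conditions bear on the supply side of translation.

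The proteins have unlike roles. TRIM11 is an E3 ubiquitin ligase of the tripartite motif family, and midnolin, the product of MIDN, brings nuclear proteins to the proteasome. PHF23 has a PHD finger that reads methylated histone H3, and CREBZF is a bZIP transcription factor. RND3 is an atypical small GTPase that acts on the actin cytoskeleton. PLEKHO2 carries a pleckstrin homology domain, and CCDC137 is a coiled-coil protein.

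Short AU-rich elements in 3′ untranslated regions are a known feature of short-lived mRNAs, and the 7-base core TATTTAT is shown here because it lay in 4 of the 7 mRNAs. The search used the forward strand of the 3′ untranslated region of the canonical GENCODE transcript of each gene (GRCh38), and TATTTAT also holds ATTTA. Each site is given as 25 bases with the core in capitals.
TRIM11, chr1:228393711-228393735, minus strand: cctctgcttTATTTATtgtaagcat
RND3, chr2:150468240-150468264, minus strand: tttccgcagTATTTATtaaaacata
MIDN, chr19:1258127-1258151, plus strand: agtttggggTATTTATagactatta
CREBZF, chr11:85661192-85661216, minus strand: atttggtcaTATTTATgtgtaagca
CREBZF, chr11:85660131-85660155, minus strand: atgagtttgTATTTATttcctggaa
CREBZF, chr11:85658800-85658824, minus strand: tttgaatttTATTTATctcaacttc
The shorter ATTTA was found in 6 of the 7 mRNAs, all but CCDC137. Among 10882 expressed genes, 38% held TATTTAT and 75.5% held ATTTA. Matches are a description of the letters and not of bound sites. CREBZF had the most copies, with 23 of ATTTA in a 3′ untranslated region of 5821 bases.

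The coding sequences shared no single composition. The share of codons ending in G or C was 86.5% in TRIM11 and 83.2% in MIDN, above that of most genes (median 57.5%). It was 52.9% in RND3 and 55.1% in PHF23, just under the median. GAA, a glutamate codon read by a tRNA that CTU2 modifies, made up 4.72% of the PHF23 codons and between 0.855% and 2.46% of those of the other 6 mRNAs (median of all genes 2.89%). AAA, a lysine codon read by another such tRNA, made up 4.51% of the codons of RND3 and 3.81% of those of CCDC137, above the median of 2.39%, and 0.214% to 1.99% of those of the other 5. None of the 7 canonical transcripts had an exon junction more than 50 bases after its stop codon. This arrangement marks targets of nonsense-mediated decay and was found in only 0.202% of genes, so its absence does not set the members apart. GENCODE also lists a transcript of the nonsense-mediated decay type for 2 members, CREBZF and CCDC137, and for 48.6% of genes. No member had an upstream ATG in its 5′ untranslated region, against 41.5% of genes with at least 1.

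The siRNAs that define the first experiment are shown as their antisense strands, with the seed (bases 2 to 8) in capitals, since a seed can act on other mRNAs.
siCTU2#1: uUGGUCAUgagcuugauag
siCTU2#2: aAGUCCUUcauguucacgc
siGL2: uCGAAGUAuuccgcguacg
The sense strands of both siCTU2 siRNAs were found in the CTU2 mRNA, and that of siGL2 was not. The letters matching the second siCTU2 seed, AAGGACT, lay in the 3′ untranslated regions of CREBZF and RND3 and in 13.7% of all. No member had a match to the other 2 seeds, which were found in 10.7% (siCTU2#1) and 1.46% (siGL2) of 3′ untranslated regions.

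The genes lie on 6 chromosomes of GRCh38. TRIM11 is at 228393673 to 228406835 on chromosome 1 (minus strand) and RND3 at 150468195 to 150539011 on chromosome 2 (minus strand). CREBZF is at 85657742 to 85682908 on chromosome 11 (minus strand) and PLEKHO2 at 64841883 to 64868002 on chromosome 15 (plus strand). PHF23, at 7235029 to 7239722 (minus strand), and CCDC137, at 81666737 to 81673904 (plus strand), share chromosome 17, and MIDN is at 1248553 to 1259143 on chromosome 19 (plus strand). In GENCODE, the last exon of TRIM11 overlaps a long noncoding RNA on the opposite strand over 963 bases, and a protein-coding model without a symbol runs through all of PLEKHO2 on its strand. Counting by strand is not given in the sources used here, so for these 2 genes the source of a read is uncertain.

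Libraries held 5987692 to 15534331 counts, and the 7 mRNAs had 6 to 6933 counts in a library. The melanocyte lineage genes SOX10, MITF and S100B were expressed, MLANA and TYR were near 0, and the epithelial, leukocyte and endothelial markers KRT5, PTPRC, PECAM1 and EPCAM were at or near 0. CTU2 was at 0.133 to 2.95 CPM (counts scaled to the library total) in 17 siCTU2 libraries and at 17.5 to 35.0 CPM in the 18 siGL2 libraries. The library labelled siCTU2 TCHX 5 h replicate 3 went against its label, with 10.4 CPM. Together with pQ TCHX 0 h replicate 3 and mQ T 5 h replicate 3, it also stood apart by the number of genes detected, 19896 to 20364 in these 3 and 15507 to 17495 elsewhere. Tests that rest on these libraries are given with and without them where the call or direction changed. At 5 h, replicate 3 was less like the other replicates in every condition and arm. Correlations of log2 CPM with replicate 3 were 0.899 to 0.943 at 5 h, against 0.970 to 0.989 between replicates 1 and 2. Values at 5 h include replicate 3 unless stated.

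The mQ T 5 h replicate 3 library bears on every member. Its normalised read counts, scaled to genes that are stable under triptolide, were nearer to those of the TCHX arm at the same time than to those of the other T libraries. For TRIM11 it held 916, where T replicates 1 and 2 held 46.6 and 73.6 and the TCHX libraries 804 to 988. For PLEKHO2 it held 133, against 9.10 and 5.81 in the other T libraries and 203 to 217 with cycloheximide. For MIDN it held 1656, against 134 and 189.9 without and 985 to 2474 with cycloheximide. The other 4 mRNAs showed the same shift, and in CREBZF (242 against 168 to 234) this T library was above all TCHX libraries.

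**Figure D1:**
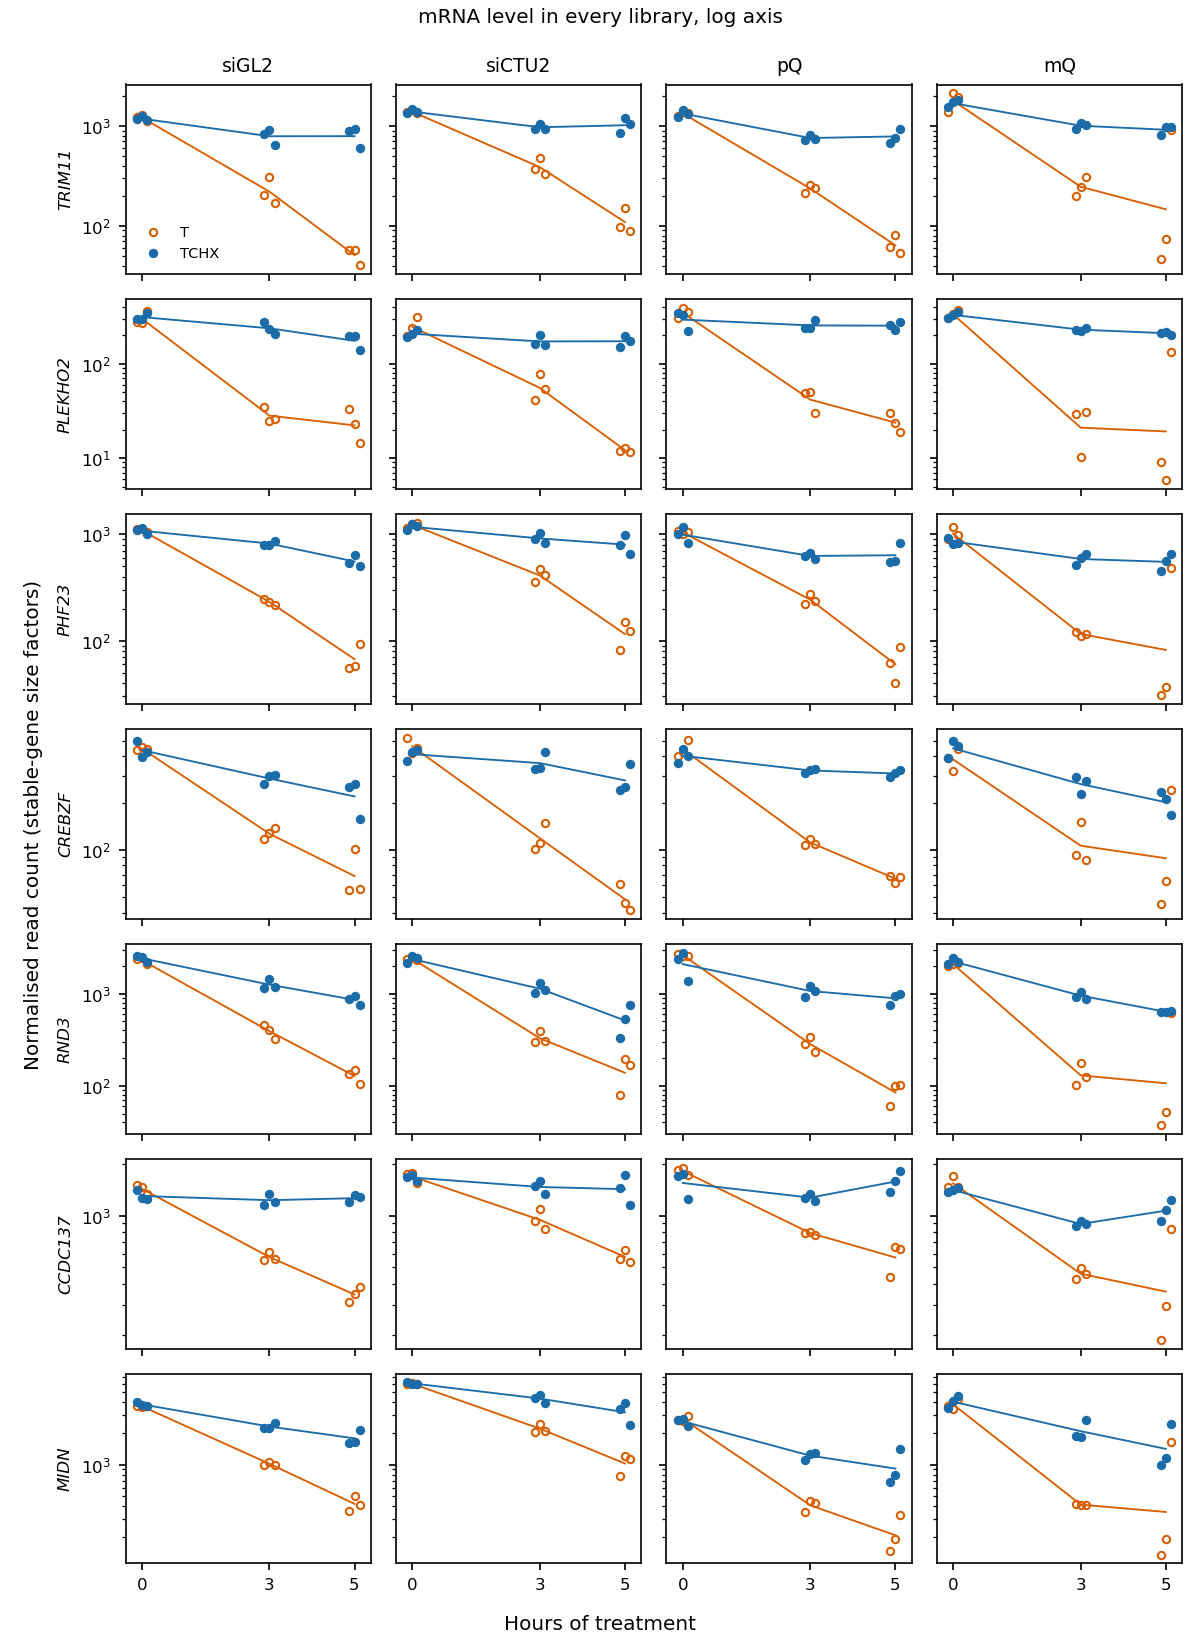
Normalised read counts (log axis) of the 7 mRNAs in all 72 libraries against hours of treatment, by condition; open circles are the T arm, filled circles the TCHX arm, and lines join geometric means of 3 replicates. T and TCHX circles lie close together at 0 h and separate at 3 and 5 h, except for 1 T circle at 5 h in mQ that lies nearer to the TCHX values than to the other T values.

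At 0 h no difference between the arms was detected for any member. The log2 differences between TCHX and T ran from -0.27 to 0.23 over the 28 pairs of groups. No member was called by edgeR at an adjusted p under 0.05, none had an unadjusted p under 0.05, and no gene at all was called (0% of those tested in each condition). In mQ this rested on wide SEs, 0.33 to 0.63 for the members against 0.12 to 0.27 elsewhere. Without replicate 3, 698 of 13418 genes were called in mQ, 684 of them higher in TCHX. Without mQ T 5 h replicate 3 alone, 0 were called. The libraries of both arms overlapped except for CCDC137 in mQ, where the T libraries (1461 to 1705 normalised counts) were all above the TCHX libraries (1372 to 1449). No member had all TCHX libraries above all T libraries at 0 h, against 2.82% of genes in siCTU2, 4.43% in siGL2, 9.19% in mQ and 2.16% in pQ.

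After 3 and 5 h the arms separated. Every TCHX library was above every T library in 52 of 56 sets of member, condition and time. All 4 exceptions were at 5 h in mQ (TRIM11, PHF23, CREBZF and MIDN), and all 7 mRNAs were without overlap there once mQ T 5 h replicate 3 was left out. Since the members were chosen for this difference, the count is a description only. Among genes with a mean normalised count of at least 10, TCHX libraries were all above T libraries at 3 h for 25% in siCTU2, 17.3% in siGL2, 29% in mQ and 16.4% in pQ. At 5 h the shares were 24.4%, 13.6%, 4.72% (28.5% without mQ T 5 h replicate 3) and 16.8%.

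TRIM11, the ubiquitin ligase, kept over 50% of its 0 h mean at 5 h with cycloheximide in each condition and a few percent without it outside mQ. In siGL2 the T libraries held 1227, 1299 and 1128 normalised counts at 0 h, 204, 311 and 168 at 3 h and 57.5, 57.5 and 40.1 at 5 h. With cycloheximide they held 828, 915 and 650.3 at 3 h and 893, 932 and 596 at 5 h. All TCHX libraries at 5 h were thus far above all T libraries. In siCTU2 the 5 h values were 97.2, 152 and 88.3 in T and 846, 1205 and 1036 in TCHX. In pQ they were 60.9, 80.9 and 52.9 against 674, 766 and 944. As a share of the 0 h mean, 4.24% ± 0.822 (SD, n = 3) was left at 5 h in T in siGL2 and 68.1% ± 15.5 in TCHX, with 8.09% ± 2.48 against 73.8% ± 12.9 in siCTU2 (73.5% in replicates 1 and 2) and 4.84% ± 1.08 against 59.4% ± 10.2 in pQ.

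PLEKHO2 rested on the fewest counts and had the largest difference in each condition. In siGL2 it held 276, 268 and 364 normalised counts at 0 h in T. At 5 h these were 33.4, 23.0 and 14.3 in T and 195, 198 and 139 in TCHX. In siCTU2 the 5 h values were 11.9, 12.9 and 11.7 in T and 149, 197 and 176 in TCHX. T replicates were thus close together in siCTU2 and spread widely in siGL2. With cycloheximide, 83.7% ± 11.7 of the 0 h level was left at 5 h in siCTU2 (83.2% in replicates 1 and 2), 56.7% ± 10.7 in siGL2, 84.8% ± 7.44 in pQ and 63.9% ± 2.21 in mQ (SD, n = 3 each). The pQ share rests on a 0 h mean that includes pQ TCHX 0 h replicate 3 (221, against 345 and 330 in replicates 1 and 2).

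PHF23, the chromatin reader, had a course close to that of TRIM11. In pQ its T libraries held 1075, 1002 and 1057 at 0 h, 221, 277 and 235 at 3 h and 61.7, 40.0 and 88.2 at 5 h. The TCHX libraries at 5 h held 553, 561 and 833. In siGL2 the 5 h values were 55.4, 58.4 and 93.2 in T and 535, 637 and 503 in TCHX, and in siCTU2 82.3, 151 and 124 against 793, 985 and 658. The arms were far apart in each of these conditions. Between 6.06% (pQ) and 9.66% (siCTU2) of the 0 h mean was left at 5 h under triptolide alone outside mQ.

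CREBZF, the bZIP factor, was the 1 member with a larger difference in siCTU2 than in siGL2 in the mean over 3 and 5 h. At single times other members had one too. At 5 h the log2 difference of PLEKHO2 was 3.78 in siCTU2 and 2.95 in siGL2. At 3 h that of RND3 was 1.79 and 1.68. In siCTU2 the 5 h libraries held 60.5, 45.9 and 41.5 counts of CREBZF in T and 242, 255 and 355 in TCHX. In siGL2 they held 55.4, 102 and 56.5 in T and 253, 267 and 159 in TCHX. The smallest gap between arms outside mQ was that in siGL2, between 102 and 159. In pQ replicates were close together, with 69.0, 61.8 and 67.0 in T and 293, 313 and 324 in TCHX. In mQ the T values were 45.5, 63.9 and, in replicate 3, 242, and the TCHX values 234, 212 and 168.

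RND3, the small GTPase, declined in both arms, a trait it shared with other members. From 0 to 5 h in the TCHX arm of siGL2, RND3 changed by -1.50 log2, MIDN by -1.08 and PHF23 by -0.96. CREBZF changed by -0.95, PLEKHO2 by -0.82, TRIM11 by -0.55 and CCDC137 by -0.04. Of the 0 h mean of RND3 in siGL2, 17.1% ± 3.05 was left at 3 h in T and 51.9% ± 6.07 in TCHX. At 5 h the shares were 5.58% ± 0.953 and 35.4% ± 3.72 (SD, n = 3 each). In siCTU2 the 5 h libraries held 79.3, 198 and 169 in T and 332, 534 and 762 in TCHX. The highest of these TCHX values came from the library whose CTU2 level went against its label. Over the 4 conditions, 22.8% to 41.0% of the 0 h level was left at 5 h with cycloheximide, the lowest range among the 7 mRNAs, and the siCTU2 share was 18.2% without that library. The 41.0%, in pQ, rests on a 0 h mean that includes pQ TCHX 0 h replicate 3 (1378, against 2398 and 2794 in replicates 1 and 2).

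CCDC137 kept the largest share under triptolide alone at 5 h outside mQ, and 76.3% (mQ) to 102% (pQ) with cycloheximide. The pQ share rests on a 0 h mean that includes pQ TCHX 0 h replicate 3 (1251, against 1694 and 1758 in replicates 1 and 2). In siGL2 the T libraries held 1506, 1474 and 1328 normalised counts of CCDC137 at 0 h, 546, 615 and 556 at 3 h and 313, 346 and 382 at 5 h. The TCHX libraries held 1204, 1311 and 1278 at 5 h, or 97.0% ± 4.2 (SD, n = 3) of their 0 h mean. In siCTU2 the 5 h values were 559, 630.3 and 536 in T and 1451, 1736 and 1151 in TCHX. The share left under triptolide alone at 5 h was 24.2% ± 2.37 in siGL2, 34.0% ± 2.9 in siCTU2 and 31.7% ± 6.57 in pQ (SD, n = 3 each).

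MIDN, which codes for midnolin, held 3571 to 3716 normalised counts at 0 h in the T arm of siGL2, 5966 to 6110.2 in siCTU2, 2652 to 2957 in pQ and 3461 to 4328 in mQ. At 5 h the T libraries held 358, 494 and 409.5 in siGL2 and 778, 1218 and 1131 in siCTU2. With cycloheximide they held 1599, 1664 and 2165 and 3479, 3927 and 2402. Between 36.7% and 53.6% of the 0 h level was left at 5 h with cycloheximide (60.7% in siCTU2 in replicates 1 and 2). The 36.7%, in pQ, rests on a 0 h mean that includes pQ TCHX 0 h replicate 3 (2365, against 2725 and 2777 in replicates 1 and 2). In pQ the TCHX value of replicate 3 (1411) was far above those of replicates 1 and 2 (682 and 796).

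The size of the cycloheximide effect, fitted as the mean log2 difference between TCHX and T at 3 and 5 h, was highest for PLEKHO2 in each condition, while the order of the others differed between conditions. PLEKHO2 stood at 3.00 ± 0.19 (SE) in siGL2, at 2.71 ± 0.18 in siCTU2, 2.98 ± 0.17 in pQ and 2.63 ± 0.48 in mQ. TRIM11 followed in the siRNA experiment, with 2.89 ± 0.17 in siGL2 and 2.25 ± 0.14 in siCTU2, stood beside RND3 in pQ (2.64 for both) and was below RND3, PHF23 and MIDN in mQ (1.70 ± 0.46). PLEKHO2 and TRIM11 in siGL2 differed by less than 1 SE. PHF23 ranged from 1.95 (mQ) to 2.41 (siGL2), RND3 from 1.82 (siCTU2) to 2.64 (pQ) and MIDN from 1.31 (siCTU2) to 1.86 (pQ). CCDC137 was lowest in siCTU2 (0.98 ± 0.11) and pQ (1.08 ± 0.12), and CREBZF was lowest in siGL2 (1.42 ± 0.16) and mQ (1.03 ± 0.30). In siCTU2 and pQ, CREBZF stood higher in the order, at 2.05 ± 0.15 and 1.88 ± 0.11. CREBZF and CCDC137 differed by less than 1 SE in siGL2 and in mQ.

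By edgeR, 7 members were called higher in TCHX in siCTU2, siGL2 and pQ and 6 in mQ, against 21%, 12.1%, 12.3% and 5.12% of all genes tested. Calls in either direction made up 21.1%, 12.7%, 12.7% and 5.24%. The member not called in mQ was CREBZF. The members were chosen for this contrast and nothing is read from the count. In mQ, SEs of 0.24 to 0.48 were larger than the 0.09 to 0.20 of the other conditions. Without mQ T 5 h replicate 3 the mQ effects were 2.97 for TRIM11, 4.02 for PLEKHO2, 3.19 for PHF23, 1.59 for CREBZF, 3.33 for RND3, 1.56 for CCDC137 and 2.81 for MIDN. All 7 were then called, as were 21.1% of genes. Of 12605 genes tested in all 4 conditions, 445 (3.53%) were called higher in each, so the 6 members among them are a small sample of a large set. Ordered by the largest of the 4 adjusted p-values, those 6 held places 41 to 378.

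**Figure D2:**
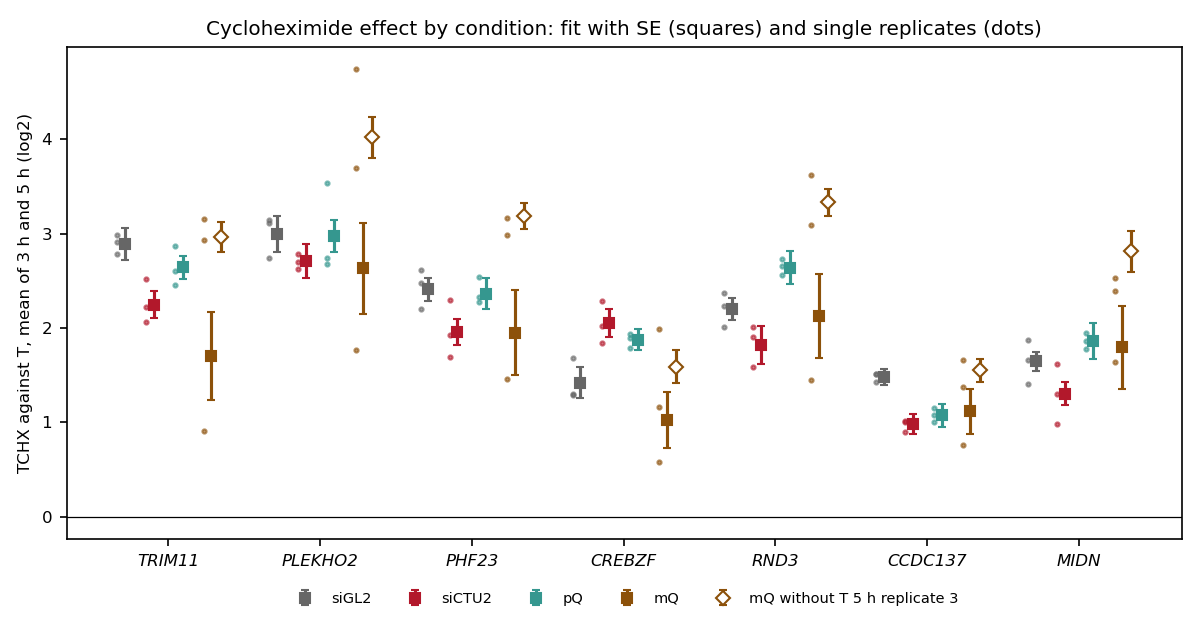
Log2 difference between TCHX and T, averaged over 3 and 5 h, for each mRNA and condition; squares with bars are edgeR estimates ± SE, dots are single replicates, and open diamonds are mQ estimates without mQ T 5 h replicate 3. All estimates are above 0, and the mQ diamonds lie above the mQ squares, for PLEKHO2 at 4.02 against 2.63.

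Whether the effect still grew between 3 and 5 h was tested as the difference of the 2 gaps, and most estimates were above 0. TRIM11 grew in siGL2 (by 2.16 ± 0.32 log2, adjusted p = 0.0161), in siCTU2 (1.87 ± 0.27, adjusted p = 0.0237) and in pQ (1.93 ± 0.23, adjusted p = 0.00271, all by edgeR). In siCTU2, PLEKHO2 (2.22 ± 0.35, edgeR adjusted p = 0.0265) and PHF23 (1.61 ± 0.28, edgeR adjusted p = 0.0295) also passed. This made 3 members in siCTU2, 1 in siGL2, 1 in pQ and none in mQ, where 0.0587%, 0.144%, 0.00749% and 0% of all genes were called. The members were chosen for a large gap between arms in these same libraries, so nothing is read from the counts against these shares. In siGL2, PLEKHO2 gave -0.12 ± 0.38 where siCTU2 gave 2.22. The difference between those 2 values was not tested. None of these calls in siCTU2, siGL2 or pQ was kept without replicate 1 or without replicate 2, where 0 members passed in each.

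The members that did not pass had estimates of 0.50 (CREBZF) to 1.18 (PHF23) in siGL2, apart from PLEKHO2, and of 0.07 (RND3) to 0.95 (CREBZF) in siCTU2. In pQ they ran from 0.55 (MIDN) to 2.00 (PHF23, edgeR adjusted p = 0.05001, just over the threshold). In mQ all but CCDC137 (0.32) were below 0, down to -1.44 for RND3. Leaving out mQ T 5 h replicate 3 turned all 6 above 0, and the range became 0.61 (CREBZF) to 1.92 (TRIM11). TRIM11, PHF23 (1.69) and CCDC137 (1.18) were then called in mQ, with 0.33% of all genes. Without the 3 libraries with extra genes the count in pQ was also 3 instead of 1, since RND3 (1.46) and PHF23 (2.00) passed.

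The effect in siCTU2 was compared with that in siGL2 by an interaction over 36 libraries. The estimates were below 0, meaning a smaller effect in siCTU2, for 6 of the 7 mRNAs. CCDC137 gave -0.50 ± 0.13 (edgeR adjusted p = 0.0861), TRIM11 -0.64 ± 0.21 (0.237), PHF23 -0.45 ± 0.18 (0.370), RND3 -0.38 ± 0.24 (0.693), MIDN -0.34 ± 0.16 (0.473) and PLEKHO2 -0.29 ± 0.26 (0.853). CREBZF alone was above 0, at 0.63 ± 0.22 (edgeR adjusted p = 0.259). No member passed, against 0.379% of all genes, although 5 had an unadjusted p under 0.05. The members were chosen for an effect in every condition, which favours small differences between conditions. With DESeq2, or with the replicate number in the model, CCDC137 did pass, and with TMM scaling TRIM11 did. The median of all genes was 0.14 under the scaling to stable genes and -0.01 under TMM scaling, so under the first scaling the 6 negative estimates were further from the median gene than from 0. Bounds of 2 SE ran from -0.76 to -0.24 for CCDC137, from 0.20 to 1.07 for CREBZF and from -0.80 to 0.23 for PLEKHO2.

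CREBZF thus stood on the other side from CCDC137. Its single-condition effects were 2.05 ± 0.15 in siCTU2 and 1.42 ± 0.16 in siGL2, those of CCDC137 0.98 ± 0.11 and 1.48 ± 0.09. Without the library whose CTU2 level went against its label, the differences were 0.54 ± 0.21 and -0.43 ± 0.12. CREBZF has a match to the seed of the second siCTU2 siRNA (given above), as has RND3, and CCDC137 has none. The part of the seed in these values was not tested.

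Between mQ and pQ the interaction gave -0.94 ± 0.51 for TRIM11, -0.85 ± 0.32 for CREBZF and -0.51 ± 0.50 for RND3. PHF23 gave -0.41 ± 0.50, PLEKHO2 -0.35 ± 0.52, MIDN -0.07 ± 0.49 and CCDC137 0.05 ± 0.27. No member passed, and no gene did (0%). The choice of members for an effect in every condition favours small differences here too. CREBZF had an unadjusted p of 0.0138. Every SE was larger than that of the same mRNA in the siRNA comparison, and the bounds of 2 SE for PLEKHO2 ran from -1.39 to 0.70.

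The same comparison without the 3 libraries with extra genes gave another picture. Of the 7 estimates 6 were then above 0, from 0.33 ± 0.19 for TRIM11 to 1.05 ± 0.26 for PLEKHO2, with CREBZF at -0.29 ± 0.19. No member passed, with PLEKHO2 and PHF23 closest (edgeR adjusted p = 0.0609 for both), and 0.566% of all genes did. Of those libraries, only mQ T 5 h replicate 3 is among the mQ and pQ libraries at 3 and 5 h that are compared here. The direction of the glutamine difference for TRIM11, PLEKHO2, PHF23, RND3 and MIDN therefore depended on that library. No direction is given here for these mRNAs.

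**Figure D3:**
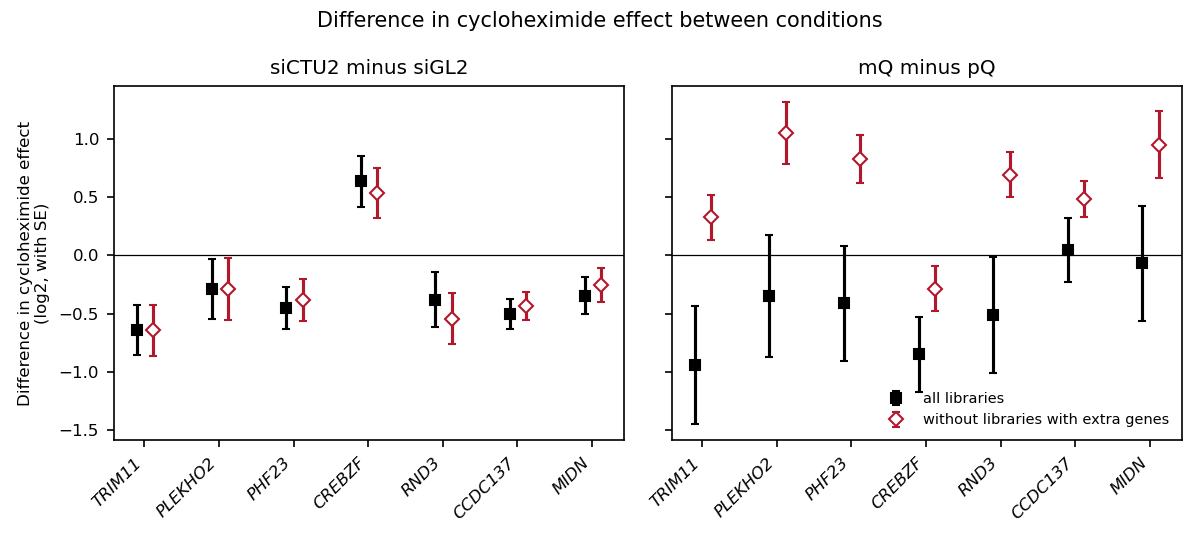
Difference in cycloheximide effect (log2 ± SE) between siCTU2 and siGL2 (left) and between mQ and pQ (right) for each mRNA, with all libraries (squares) and without the 3 libraries with extra genes (diamonds). On the left both estimates of each mRNA differ by less than 1 SE, and on the right 5 of them change side of 0.

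Loss of the mRNA under triptolide alone was compared between conditions in the same way. In siCTU2 minus siGL2, 5 of 7 estimates were above 0, meaning less loss in siCTU2, with 0.32 for PLEKHO2, 0.49 for CCDC137, 0.50 for MIDN, 0.63 for PHF23 and 0.77 for TRIM11, while RND3 gave -0.07 and CREBZF -0.36. No member passed (smallest edgeR adjusted p = 0.388), nor in mQ against pQ (smallest edgeR adjusted p = 0.748). There CCDC137 gave -0.35, PLEKHO2 0.20, PHF23 0.29, MIDN 0.35, RND3 0.51, CREBZF 0.63 and TRIM11 0.81. Of all genes, 0.105% and 0% passed. The T libraries after 0 h were also used to choose the members. Without the 3 libraries with extra genes the glutamine range turned to -1.20 to 0.07, so no direction is given for it.

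The TDD index of the study is the TCHX minus the T level at one time, divided by the 0 h level, so that 1 means that cycloheximide kept an amount equal to the whole starting pool. In siGL2 at 5 h it was 0.672 ± 0.0518 for CCDC137, 0.625 ± 0.117 for TRIM11 and 0.308 ± 0.00855 for RND3 (SD, n = 3 each). In siCTU2 it was 0.514 ± 0.122, 0.657 ± 0.0941 and 0.165 ± 0.0737, or 0.576, 0.636 and 0.122 in replicates 1 and 2. For CREBZF it was 0.535 ± 0.155 in siCTU2 (0.450 in replicates 1 and 2) and 0.348 ± 0.0971 in siGL2. In a linear model over both times, siCTU2 differed from siGL2 by -0.164 ± 0.038 (SE) for CCDC137, 0.188 ± 0.057 for CREBZF and -0.0859 ± 0.032 for RND3. The differences were -0.0118 for TRIM11, 0.0126 for PLEKHO2, 0.00349 for PHF23 and -0.00469 for MIDN. For TRIM11, PLEKHO2 and PHF23 these averages join a lower index in siCTU2 at 3 h and a higher one at 5 h. PLEKHO2 had 0.520 in siCTU2 and 0.697 in siGL2 at 3 h, and 0.713 and 0.511 at 5 h. PHF23 had 0.422 and 0.543 at 3 h, and 0.576 and 0.448 at 5 h. The index was not tested at single times. CCDC137, CREBZF and RND3 passed an unadjusted p of 0.05, 3 of 7, as did 8.15% of genes. None passed after Benjamini-Hochberg adjustment over all genes, and no gene did. The choice of members for an effect in every condition favours small differences in this index too. Between mQ and pQ the differences were -0.237 for CREBZF, -0.135 for PLEKHO2, -0.0856 for CCDC137, -0.0799 for TRIM11, -0.0587 for RND3, -0.0280 for PHF23 and 0.0393 for MIDN, with 0 members and 4.78% of genes at an unadjusted p under 0.05. Of the 6 negative values, 4 (TRIM11, PLEKHO2, PHF23 and RND3) were above 0 without the 3 libraries with extra genes, so no direction is given for them.

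Levels before decay, which the choice of the 7 mRNAs did not use, differed for MIDN. In the T arm at 0 h, MIDN stood at 443, 476 and 451 CPM in siCTU2 and at 298, 280.5 and 310.2 CPM in siGL2. Every siCTU2 library was above every siGL2 library, and MIDN rose by 0.62 ± 0.07 log2 (TMM scaling, as in all tests at 0 h between conditions, edgeR adjusted p = 8.8e-07). MIDN also stood higher without glutamine, at 318, 275 and 321 CPM in mQ and 214, 194 and 229 CPM in pQ, a rise of 0.57 ± 0.11 log2 (edgeR adjusted p = 0.00322). The libraries did not overlap there either. The TCHX arm at 0 h is a second set of libraries, and MIDN was higher in it too, by 0.70 ± 0.07 in siCTU2 and 0.60 ± 0.11 in mQ (edgeR adjusted p = 2.2e-07 and 0.0125).

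TRIM11 was higher in mQ (119, 169 and 144 CPM) than in pQ (99.8, 102 and 105 CPM), by 0.55 ± 0.13 log2 (edgeR adjusted p = 0.0108). In the TCHX arm it gave 0.30 ± 0.12 (edgeR adjusted p = 0.153), and without pQ TCHX 0 h replicate 3 it gave 0.40 ± 0.10 (edgeR adjusted p = 0.00700). In that arm 1 member, MIDN, was called with all libraries and 6.47% of genes, and MIDN and TRIM11 without that library, with 20.1% of genes. Without pQ replicate 1 or replicate 2 the T arm call was lost. Between siCTU2 and siGL2, TRIM11 gave 0.09 ± 0.08 in the T arm.

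The other 5 mRNAs did not pass in the T arm, with differences of -0.37 for PLEKHO2, -0.05 for CREBZF and for RND3, 0.08 for PHF23 and 0.14 for CCDC137 in siCTU2 against siGL2. In mQ against pQ they were -0.22 for RND3, -0.12 for CCDC137, -0.11 for CREBZF, 0.05 for PLEKHO2 and 0.08 for PHF23. The counts were thus 1 of 7 for siCTU2 and 2 of 7 for mQ, against 36% and 24.8% of all genes. In the TCHX arm of siCTU2, where 37.2% of genes were called, 4 members passed. These were MIDN, CCDC137 (0.38 ± 0.08), TRIM11 (0.26 ± 0.09) and PLEKHO2, which was lower (-0.57 ± 0.15). Mean PLEKHO2 levels were 16.7 ± 1.67 CPM in siCTU2 and 24.8 ± 3.19 CPM in siGL2 in that arm (SD, n = 3 each).

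**Figure D4:**
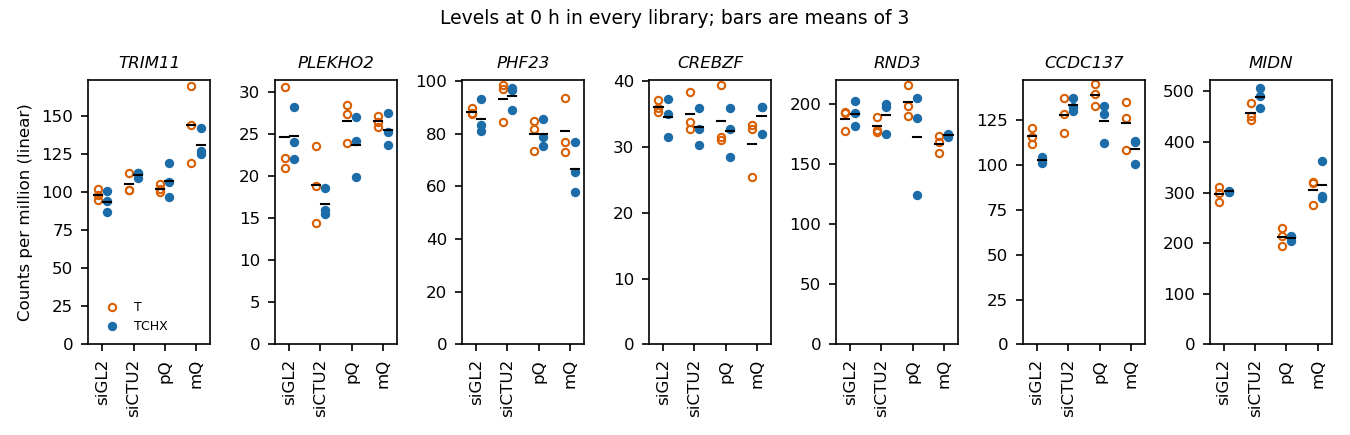
CPM (linear axes from 0) of each mRNA at 0 h by condition, with open circles for the T arm, filled circles for the TCHX arm and bars for means of 3 libraries. In the T arm, MIDN has means of 296 CPM in siGL2, 457 in siCTU2, 212 in pQ and 304.4 in mQ.

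The 7 courses resembled each other over the 24 group means. The correlation of each member with the mean of the other 6, on log2 values centred within an experiment, was 0.935 for MIDN, 0.936 for CCDC137 and between 0.960 and 0.989 for the rest. All points share libraries and scaling, and the members were chosen for a common difference, so no test is given. Among 8748 other genes with at least 100 normalised counts at 0 h, PHLDA1 followed the members' mean profile most closely (r = 0.996), then HYLS1 (0.991), CDC42EP2 (0.990), PATZ1 (0.989) and KLHL21 (0.988). The median gene had r = 0.60 with that profile.

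Relatives of the members were drawn from lists of their families. Of 20 tested genes of the TRIM family, 10 were called higher with cycloheximide in siCTU2, 6 in siGL2, 5 in mQ and 5 in pQ, with none lower. Over all genes, 21%, 12.1%, 5.12% and 12.3% were called higher in the same order, which is the background for each list here. The median log2 effect of the list was 0.52, 0.46, 0.55 and 0.19, against 0.22, 0.05, 0.05 and 0.06 over all genes. TRIM47 gave 1.34 ± 0.11 in siGL2 and 0.82 ± 0.12 in siCTU2 (edgeR adjusted p = 3.8e-07 and 5.1e-05). Of 16 pleckstrin homology genes, 7, 3, 2 and 3 were called higher in the same order of conditions and 1 lower in siGL2 alone. PLEKHF1, of this list, gave 3.72 ± 0.33 in siGL2 and 2.22 ± 0.48 in mQ (edgeR adjusted p = 7.3e-07 and 0.0160). PLEKHO1, the closest relative of PLEKHO2 by name, passed in no condition (-0.40 to 0.35).

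Of 13 PHD finger genes, 7, 3, 0 and 2 were called higher in siCTU2, siGL2, mQ and pQ, against 21%, 12.1%, 5.12% and 12.3% of all genes. PHF13 gave 2.10 ± 0.22 in siGL2, 2.34 ± 0.24 in siCTU2 and 2.19 ± 0.22 in pQ, all called by edgeR, and 0.90 ± 0.51 in mQ (edgeR adjusted p = 0.371). Of 12 CREB and ATF genes, 3, 2, 1 and 2 were called, close to the same shares, with list medians of 0.13, 0.012, 0.11 and 0.0022 against 0.22, 0.05, 0.05 and 0.06 over all genes. ATF4, the transcription factor of the integrated stress response, was called in all 4 conditions with 0.86 (pQ) to 1.07 (siCTU2), and CREB3 in none (-0.21 to -0.01). TRIM17 and TRIM27 passed the count filter in no condition. The lists were drawn up with earlier results of these data known and are given as counts only.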

How the data were processed

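Cytoplasmic RNA of 72 A375 libraries was profiled by QuantSeq. The deposited table holds raw counts per gene, which the authors made from their reads; the submitters' processing notes name fastp 0.20.1, HISAT2 2.2.1, HTSeq 0.13.5 and GRCh38.p13. The strand setting is not given in the sources used here. Samples were grouped by their labels.

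Counts were scaled to genes stable under triptolide (the study's approach), except that levels at 0 h were compared between conditions with TMM scaling, and tested with edgeR 4.0.16 (quasi-likelihood, R 4.3.3) over all genes that passed its count filter, with Benjamini-Hochberg adjustment and a threshold of 0.05. Conditions were fitted separately, and differences between conditions as an interaction over the 36 libraries of an experiment. The TDD index was tested with a linear model of condition, time and replicate, the terms the study used. DESeq2 1.42.0, limma 3.58.1, TMM scaling, other stable genes, no count filter, a replicate block, single times and leaving out replicates or libraries were alternatives. Fits were tested on simulated data.

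By the rule for named genes, all 7 members are named in the main comparisons, and some alternatives and the 0 h comparison of arms give them as ranges. Relatives named are given genes plus the gene of each list with the smallest p in siGL2, and some of them, with their lists, are not reported here. The members and lists were chosen with earlier results of these data known. Totals of 5987692 to 15534331 counts per library limit the precision for the members with few counts.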

Additional observations from a re-analysis of the deposited data

Results flagged for a closer look

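The TDD index of 3 of the 7 mRNAs differed between siCTU2 and siGL2 at an unadjusted p under 0.05 in a linear model over both times. CCDC137 was lower in siCTU2 by -0.164 (unadjusted p = 0.00324), CREBZF higher by 0.188 (unadjusted p = 0.0126) and RND3 lower by -0.0859 (unadjusted p = 0.0325). None passed after adjustment over all genes, and 8.15% of genes reached the same unadjusted threshold.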

How the results depend on the processing

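Of 896 alternative values of tested single-mRNA results, 720 kept their direction and their side of the threshold, 103 changed direction, 32 lost a call and 41 gained one. The cause was not tested. The cycloheximide effect was above 0 in 336 of 336 alternatives and was not called in 38, all in mQ. The median effect of the members was 1.96 in siCTU2, 2.2 in siGL2, 1.80 in mQ and 2.36 in pQ. At 3 h alone it was 1.31 in siCTU2, 1.67 in siGL2 and 1.59 in pQ, and at 5 h alone 2.53, 2.74 and, for the cycloheximide effect, pQ, 3.36. TMM scaling gave 1.72 in siCTU2 and 2.27 in pQ, genes stable at both times 2.04 and 2.02, and subtracting the 0 h difference 2.02 in siCTU2. Leaving out replicates gave 1.83 to 1.98 in siCTU2 and 1.69 to 3.03 in mQ, and leaving out the 3 libraries with extra genes 2.97 in mQ. In mQ, 0 members were called without replicate 1, without replicate 2, at 3 h or 5 h alone or with the 0 h difference subtracted.

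For growth from 3 to 5 h, the count in pQ was 3 with DESeq2, no count filter, the replicate block or without the 3 libraries, 2 with TMM and 0 with genes stable at both times. Without single replicates it was 0 to 3 in pQ, 0 to 5 in siGL2, 0 to 1 in siCTU2 and 0 to 3 in mQ. In siGL2 it was 5 with DESeq2, 2 with TMM or the replicate block and 0 with genes stable at both times, as in siCTU2. In mQ it was 2 with no count filter and 3 without the 3 libraries. Without single replicates, and then without the 3 libraries, the mQ values were -1.19 to 0.90 and 0.61 for CREBZF, -1.53 to 0.54 and 0.86 for MIDN, -1.26 to 1.63 and 1.69 for PHF23, -1.87 to 1.42 and 1.58 for PLEKHO2, -2.06 to 0.93 and 0.96 for RND3 and -1.07 to 1.70 and 1.92 for TRIM11. RND3 in siCTU2 gave -0.16 with TMM and -0.25 without the library labelled siCTU2 TCHX 5 h replicate 3, where the count was 3, and -0.25 to 0.33 without single replicates. PLEKHO2 in siGL2 gave -0.28 to 0.064 without single replicates.

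For siCTU2 against siGL2, 1 member passed with DESeq2, TMM or the replicate block. PLEKHO2 gave 0.029 with the 0 h difference subtracted and 0.88 at 5 h alone, and RND3 0.12 at 3 h alone. For mQ against pQ, 1 member passed with no count filter and 0 to 2 without single replicates. At 3 h alone MIDN gave 0.79, PHF23 0.98, PLEKHO2 0.66, RND3 0.94 and TRIM11 0.33. With genes stable at both times MIDN gave 0.43, PHF23 0.058 and PLEKHO2 0.10. MIDN gave 0.064 with TMM and 0.0082 with the replicate block. CCDC137 gave -0.037 with the 0 h difference subtracted and -0.18 at 5 h alone. Without the 3 libraries MIDN gave 0.95, PHF23 0.82, PLEKHO2 1.05, RND3 0.69 and TRIM11 0.33. Without single replicates the values were -0.083 to 0.43 for CCDC137, -0.19 to 0.59 for MIDN, -0.62 to 0.67 for PHF23, -0.86 to 1.41 for PLEKHO2, -0.82 to 0.72 for RND3 and -1.34 to 0.50 for TRIM11. Loss in the T arm by glutamine had 0 to 3 calls without single replicates.

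For loss in the T arm by CTU2, PLEKHO2 gave -0.64 at 5 h alone, and RND3 0.16 at 5 h alone, 0.084 with TMM and -0.24 to 0.17 without single replicates. By glutamine, at 3 h alone TRIM11 gave -0.37, PLEKHO2 -0.75, PHF23 -1.04, RND3 -0.78 and MIDN -0.45. With genes stable at both times PLEKHO2 gave -0.20, PHF23 -0.11 and MIDN -0.064. Without the 3 libraries TRIM11 gave -0.46, PLEKHO2 -1.20, PHF23 -0.94, RND3 -0.70 and MIDN -0.67. Without single replicates the values were -0.55 to 1.28 for TRIM11, -1.42 to 0.57 for PLEKHO2, -0.85 to 0.62 for PHF23, -0.64 to 0.76 for RND3 and -0.41 to 0.51 for MIDN.

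The TDD count by CTU2 was 0 with limma and a replicate block on means over times, 1 with genes stable at both times, 1 to 3 without single replicates and 3 without the library labelled siCTU2 TCHX 5 h replicate 3. By glutamine it was 1 with TMM or each arm's own 0 h library, 2 with genes stable at both times or without the 3 libraries and 0 to 1 without single replicates.

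The TDD difference by CTU2, near 0 for 4 members, changed sign in these. With TMM, PLEKHO2 gave -0.0517 and PHF23 -0.0771. With genes stable at both times TRIM11 gave 0.0159 and MIDN 0.0233. With each arm's own 0 h library MIDN gave 0.00602. Without the 3 libraries PLEKHO2 gave -0.0265 and MIDN 0.0374. Without single replicates or the library labelled siCTU2 TCHX 5 h replicate 3, the values were -0.0745 to 0.0475 for TRIM11, -0.0265 to 0.0341 for PLEKHO2, -0.0399 to 0.0709 for PHF23 and -0.0533 to 0.0889 for MIDN.

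By glutamine, the TDD difference of PHF23 was 0.00464 with TMM and 0.0175 with each arm's own 0 h library. With genes stable at both times TRIM11 gave 0.00567, PHF23 0.0571 and CCDC137 0.0647. Without the 3 libraries TRIM11 gave 0.00863, PLEKHO2 0.00822, PHF23 0.0716 and RND3 0.0283. Without single replicates the values were -0.150 to 0.0359 for TRIM11, -0.248 to 0.0524 for PLEKHO2, -0.0843 to 0.0518 for PHF23, -0.129 to 0.0401 for RND3 and -0.138 to 0.00387 for CCDC137.

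At 0 h, siCTU2 against siGL2 had 4 calls in the TCHX arm, 2 with the replicate block and 1 to 2 without single replicates. For mQ against pQ there was 1 call in the TCHX arm and 1 to 2 without single replicates. In the TCHX arm, and without its pQ replicate 3 (an alternative chosen after seeing the data), CREBZF gave 0.11 and 0.21 and PHF23 -0.25 and -0.28. RND3 gave 0.034 in the TCHX arm. Without single replicates CREBZF gave -0.17 to 0.013, PHF23 -0.042 to 0.14 and PLEKHO2 -0.025 to 0.095.

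Of 396 pairs of same-numbered libraries, 292 had correlated deviations over 0.1 (medians per number 0.11 to 0.265), but the lowest per number were -0.56 to 0.012. In the column names of the counts, each replicate number has its own prefix, shared by all conditions, arms and times. What the prefix stands for is not given. Whether the numbers pair samples is not settled by these values. The main edgeR fits left the number out, and the replicate block was an alternative. The TDD model keeps the replicate term that the study used. Beside the counts given above, the replicate block brought the effect of CREBZF in mQ past the threshold. Low counts limit the T arm at 5 h, down to 6 for PLEKHO2, 27 for PHF23, 33 for RND3, 40 for CREBZF and 41 for TRIM11.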
